A study of Homo sapiens with 8 samples.

Results

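The snoRNA host genes described here are the long noncoding transcripts whose symbol is SNHG followed by a number, together with GAS5. They were chosen by symbol alone, and 29 such symbols were found in each of the count tables, among 46427 entries for NCI-H1944 and 61271 for NCI-H647. Where a symbol had several entries, only its most abundant entry was used. NCI-H1944 and NCI-H647 are human non-small cell lung cancer lines, both given as wild type in the labels. Each line was treated with DMSO as vehicle or with 100 nM BAY-1217389 for 48 h, which blocks MPS1, a kinase of the spindle checkpoint, and is called MPS1i here. The drug was then washed out and RNA was taken after a further 24 h in culture, from 2 libraries per group and 8 in all. The comparison asks how the host genes stood after the inhibitor pulse, in each line, beside the ribosomal protein genes.

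Small nucleolar RNAs guide the ribose methylation (box C/D class) and pseudouridylation (box H/ACA class) of ribosomal RNA, and most human ones are cut from introns of longer host transcripts. Many noncoding hosts share with ribosomal protein mRNAs a transcription start in a run of pyrimidines, the 5′ terminal oligopyrimidine (TOP) motif, through which mTOR and LARP1 control translation and stability. Their spliced RNA carries only short reading frames and is commonly destroyed by nonsense-mediated decay while it is translated. GAS5 was named for its accumulation in growth-arrested cells.

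The starts of members that moved in different ways are shown first, because many noncoding hosts are described as sharing the TOP motif with ribosomal protein genes. The windows printed were picked and do not show how common the run is among members, which is given after them. Each line gives 15 bases before the RefSeq start site and 25 bases from it, 5′ to 3′ on the gene's strand (RefSeq, GRCh38.p14). Capitals mark a C at the start site followed by at least 4 pyrimidines, where there is such a run. The sequences lie at chr6:85678709-85678748 (SNHG5, minus strand), chr6:31834901-31834940 (SNHG32, plus strand), chr5:139274086-139274125 (SNHG4, plus strand), chr1:28581849-28581888 (SNHG12, minus strand), chr17:16438972-16439011 (SNHG29, plus strand), chr9:136728160-136728199 (SNHG7, minus strand) and chr11:62855861-62855900 (SNHG1, minus strand).
SNHG5: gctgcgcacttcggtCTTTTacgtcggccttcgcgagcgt
SNHG32: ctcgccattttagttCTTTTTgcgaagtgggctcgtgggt
SNHG4: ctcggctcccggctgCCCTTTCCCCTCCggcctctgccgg
SNHG12: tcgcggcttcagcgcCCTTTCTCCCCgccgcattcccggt
SNHG29: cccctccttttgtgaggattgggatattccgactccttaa
SNHG7: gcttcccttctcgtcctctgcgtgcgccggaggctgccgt
SNHG1: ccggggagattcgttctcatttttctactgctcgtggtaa

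RefSeq windows were matched for 25 of the 29 members, and 6 of them (24.0%) had such a run at the start site. The same was true of 43 of 63 ribosomal protein windows (68.3%) and of 1429 of all 35116 promoter windows (4.07%). With the C allowed to lie up to 10 bases from the start site, the shares were 60.0% of members, 88.9% of ribosomal protein genes and 33.5% of all promoters. The 6 members were SNHG4, SNHG5, SNHG12, SNHG18, SNHG19 and SNHG32. They held transcripts that were lower in both lines (SNHG5 and SNHG32), lower in NCI-H647 (SNHG4), higher in NCI-H647 (SNHG12), not called in either line (SNHG19) and too low to test (SNHG18). A RefSeq start is a single annotated position per gene and need not be the one used in these cells, so a match or its lack is a description of that window.

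Library totals ran from 38904473 to 43661342 counts in NCI-H1944, from poly(A)-selected libraries, and from 13358514 to 19550859 in NCI-H647, from ribosomal RNA-depleted libraries. Of 6 epithelial markers, KRT7, KRT8 and KRT18 were well expressed in both lines, while KRT19 was at 0 in all NCI-H1944 libraries and CDH1 had 3 to 9 counts per library in NCI-H647. The epithelial sum moved with the inhibitor. In NCI-H1944 it went from 4127 and 4135 to 4792 and 4952 CPM (counts scaled to a common library size), with KRT8 and KRT18 higher. In NCI-H647 it went from 896.6 and 875.2 to 639.7 and 634.7 CPM, with KRT7, KRT8 and KRT18 lower. Of the 5 epithelial markers tested in NCI-H647, 1 was higher and 1 was not called. The 6 leukocyte and erythroid markers summed to 2.031 and 2.197 CPM in the NCI-H1944 controls and 3.31 and 4.21 CPM after the inhibitor, with PTPRC at 0 in all 4 libraries and LYZ and HBA1 higher. In NCI-H647 they summed to 0.991 and 1.061 against 2.76 and 2.51 CPM, with CD14 higher. The 6 fibroblast and endothelial markers summed to 4.93 and 5.44 against 8.31 and 9.02 CPM in NCI-H1944, with COL1A1 and PECAM1 higher, and to 47.8 and 52.0 against 43.8 and 39.6 CPM in NCI-H647, with CDH5 and COL1A1 lower. The part of these shifts in the results on host genes was not tested. The labels do not say whether replicates were separate cultures, so p-values here reflect no more than how far these libraries vary, which may be technical. In bulk RNA, fewer cells with a transcript and less of it per cell cannot be told apart.

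The host genes made up 0.172% of counts in both NCI-H1944 DMSO libraries and 0.1395% and 0.1363% in the MPS1i libraries. In NCI-H647 they made up 0.199% and 0.1922% in DMSO and 0.1594% and 0.1621% after the inhibitor. In each line, both treated libraries lay under both controls, as did the share of the 79 ribosomal protein genes, at 6.545% and 6.642% against 5.552% and 5.549% in NCI-H1944 and 7.955% and 7.785% against 6.117% and 6.266% in NCI-H647. The sum is dominated by a few abundant members and hides a division among the others, which differed between the lines.

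In NCI-H1944, the host genes that passed the test were all lower after the inhibitor. Of 24 members with enough counts to test, 10 were lower and 0 higher (41.7% called), beside 26% of all 16738 genes tested, of which 12.4% were lower. The 14 others did not pass the test. At an unadjusted p under 0.05, 2 members (SNHG11 and SNHG15) were higher, and DESeq2 called 0 higher. The median log2 fold change of the 24 was -0.18, beside 0.0011 over all genes and -0.19 over the ribosomal proteins. Treated libraries lay below both controls for 17 members and above both for 3, where 30.5% of all genes tested did so in each direction.

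In NCI-H647, the host genes moved in both directions, as did all genes tested. Of 26 members tested, 9 were lower and 9 higher (69.2% called), beside 54.4% of all 15049 genes tested, of which 27% were lower and 27.3% higher. The median of the members was -0.034 and that of all genes 0.0054, while the ribosomal proteins had -0.40. Treated libraries lay below both controls for 10 members (37.9% of all genes) and above both for 12 (38.4% of all genes). The plot of fold changes for each member shows this division.

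**Figure D1:**
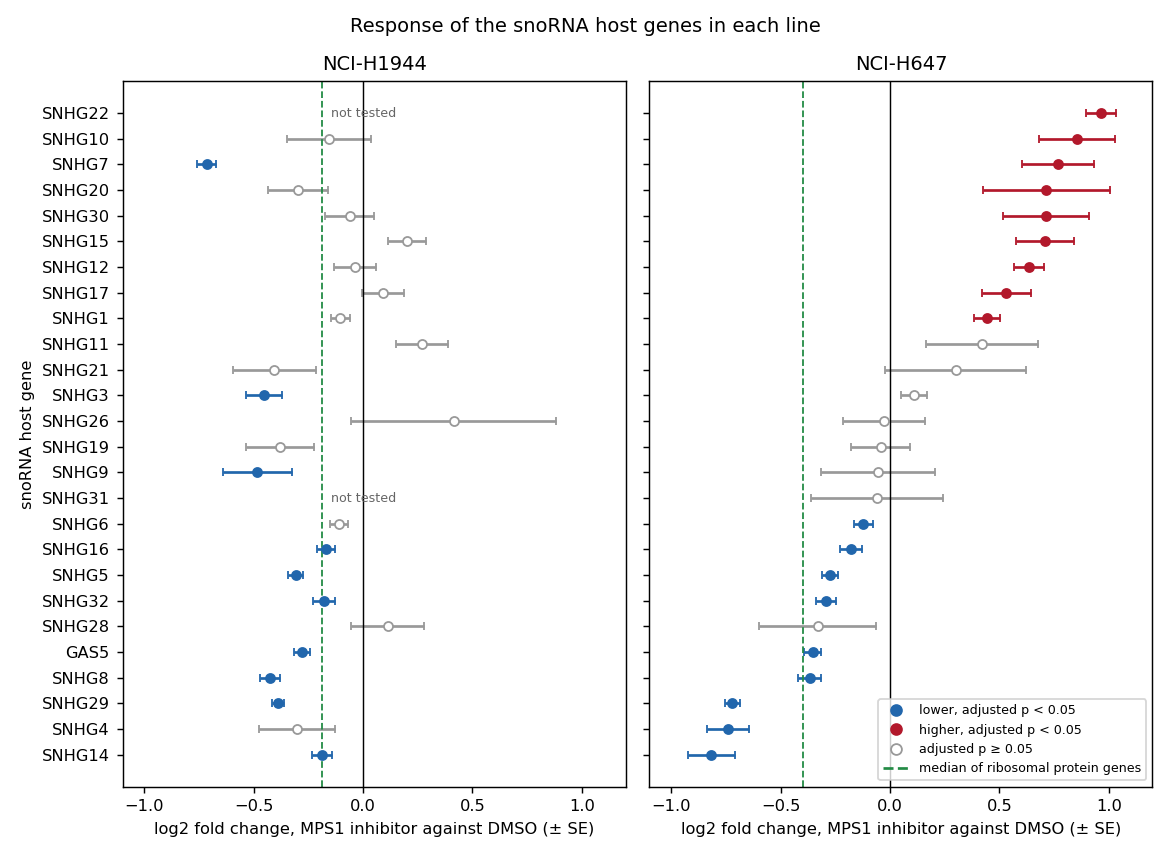
log2 fold change of MPS1i against DMSO, with its standard error (bars), for each snoRNA host gene tested in NCI-H1944 (left) and NCI-H647 (right), from 2 libraries per group. Filled blue and red points are members called lower and higher at an adjusted p under 0.05, open points were not called, and the dashed line is the median of the 79 ribosomal protein genes (-0.19 and -0.40). Red points appear only in the NCI-H647 panel.

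A set of 7 members was lower in both lines: GAS5, SNHG5, SNHG8, SNHG14, SNHG16, SNHG29 and SNHG32. SNHG29, on chromosome 17 (chr17:16438767-16480249, plus strand, in the authors' GRCh38 table), hosts box C/D snoRNAs and was the most abundant member by CPM in both lines. Its level was 686.7 and 683.1 CPM in the NCI-H1944 controls and 532.0 and 514.3 CPM after the inhibitor, a log2 fold change of -0.39 ± 0.03 (SE, adjusted p = 8.74e-09). In NCI-H647 it was 763.0 and 725.3 CPM in the controls and 450.1 and 453.1 CPM after the inhibitor, at -0.72 ± 0.03 (adjusted p = 1.07e-10). Control and treated libraries were well apart in each line, and the response in NCI-H647 differed from that in NCI-H1944 by -0.36 ± 0.05 on the log2 scale in the test of the difference between lines (adjusted p = 1.77e-06). LRRC75A, which overlaps SNHG29 on the opposite strand, was lower in NCI-H647 (-0.57 ± 0.21, adjusted p = 0.0334) and not called in NCI-H1944 (0.53 ± 0.25). How the counting treated strand is not given in the sources used here.

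GAS5, on chromosome 1 (chr1:173858559-173868882, minus strand), hosts a cluster of box C/D snoRNAs, and its RNA has been described as a decoy for the glucocorticoid receptor. It had 173.9 and 170.5 CPM in the NCI-H1944 controls and 145.2 and 138.3 CPM after the inhibitor (-0.28 ± 0.04, adjusted p = 2.61e-05). The NCI-H647 values were 245.9 and 241.5 CPM in the controls and 192.5 and 189.3 CPM after the inhibitor (-0.35 ± 0.04, adjusted p = 1.69e-06). Groups did not overlap in either line, and the difference between the lines, at -0.095 ± 0.048, did not pass its test (adjusted p = 0.123), although it did without the second NCI-H1944 MPS1i library (0.0407, in a range of 0.0407 to 0.851). Both GAS5 values lay within the range of the ribosomal protein genes.

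SNHG5, on chromosome 6 (chr6:85650491-85678932, minus strand), is a host of box C/D snoRNAs whose start site carries the pyrimidine run printed above. Its level was 193.5 and 188.8 CPM in the NCI-H1944 controls and 156.2 and 152.4 CPM after the inhibitor (-0.31 ± 0.04, adjusted p = 5.06e-06). In NCI-H647, 276.4 and 269.1 CPM in the controls stood against 222.7 and 228.1 CPM (-0.28 ± 0.04, adjusted p = 1.75e-05). The lines differed by 0.010 ± 0.046, which did not pass the test (adjusted p = 0.884). SNHG8, which hosts the box H/ACA RNA SNORA24, had 77.7 and 73.7 CPM in the NCI-H1944 controls and 56.5 and 56.2 CPM in the treated libraries (-0.43 ± 0.05, adjusted p = 2.57e-06). The same gene had 138.8 and 127.9 CPM in the NCI-H647 controls and 100.1 and 106.8 CPM in the treated libraries (-0.37 ± 0.05, adjusted p = 3.23e-05). PRSS12, which overlaps SNHG8 on the opposite strand, was lower in NCI-H647 (-0.68 ± 0.07, adjusted p = 4.74e-07) and not called in NCI-H1944 (-0.017 ± 0.230).

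The remaining members lower in both lines were SNHG14, SNHG16 and SNHG32. SNHG14 is the long imprinted transcript of the Prader-Willi and Angelman region on chromosome 15 (chr15:24978583-25420336, plus strand), which carries repeated box C/D snoRNAs and runs antisense to UBE3A. It had 65.1 and 63.5 CPM in the NCI-H1944 controls and 55.5 and 57.5 CPM after the inhibitor (-0.19 ± 0.05, adjusted p = 0.00653). In NCI-H647 its 17.6 CPM in both controls stood against 9.07 and 10.9 CPM (-0.82 ± 0.11, adjusted p = 1.29e-05), the lowest fold change of any member there. The response in NCI-H647 differed from that in NCI-H1944 by -0.65 ± 0.11 (adjusted p = 8.76e-05). PWAR5, which lies within SNHG14 on the same strand, was also lower in both lines (-0.63 ± 0.20, adjusted p = 0.0285, and -1.91 ± 0.33, adjusted p = 0.000179), whereas SNRPN, at its start, was not called in either (0.025 ± 0.058 and 0.075 ± 0.095). UBE3A, on the opposite strand, was not called in either line (-0.040 ± 0.047 and -0.063 ± 0.056). Whether the part of SNHG14 antisense to UBE3A was transcribed in these cells was not tested.

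SNHG16, a host of box C/D snoRNAs, had 92.1 and 91.1 CPM in the NCI-H1944 controls and 83.0 and 79.9 CPM after the inhibitor (-0.17 ± 0.04, adjusted p = 0.00542). Its 77.0 and 76.8 CPM in the NCI-H647 controls stood against 67.6 and 68.3 CPM (-0.18 ± 0.05, adjusted p = 0.00739). SNHG32, another box C/D host, whose start also carries a pyrimidine run, had 133.7 and 132.3 CPM in the NCI-H647 controls and 106.2 and 111.1 CPM after the inhibitor (-0.29 ± 0.05, adjusted p = 8.07e-05). The NCI-H1944 change of SNHG32 was smaller, at -0.18 ± 0.05 (adjusted p = 0.0162), and 5 of 10 alternative settings other than a minimum fold lost that call, with adjusted p up to 0.0848. The test of the difference between lines did not pass for either gene (adjusted p = 0.734 for SNHG16 and 0.106 for SNHG32).

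**Figure D2:**
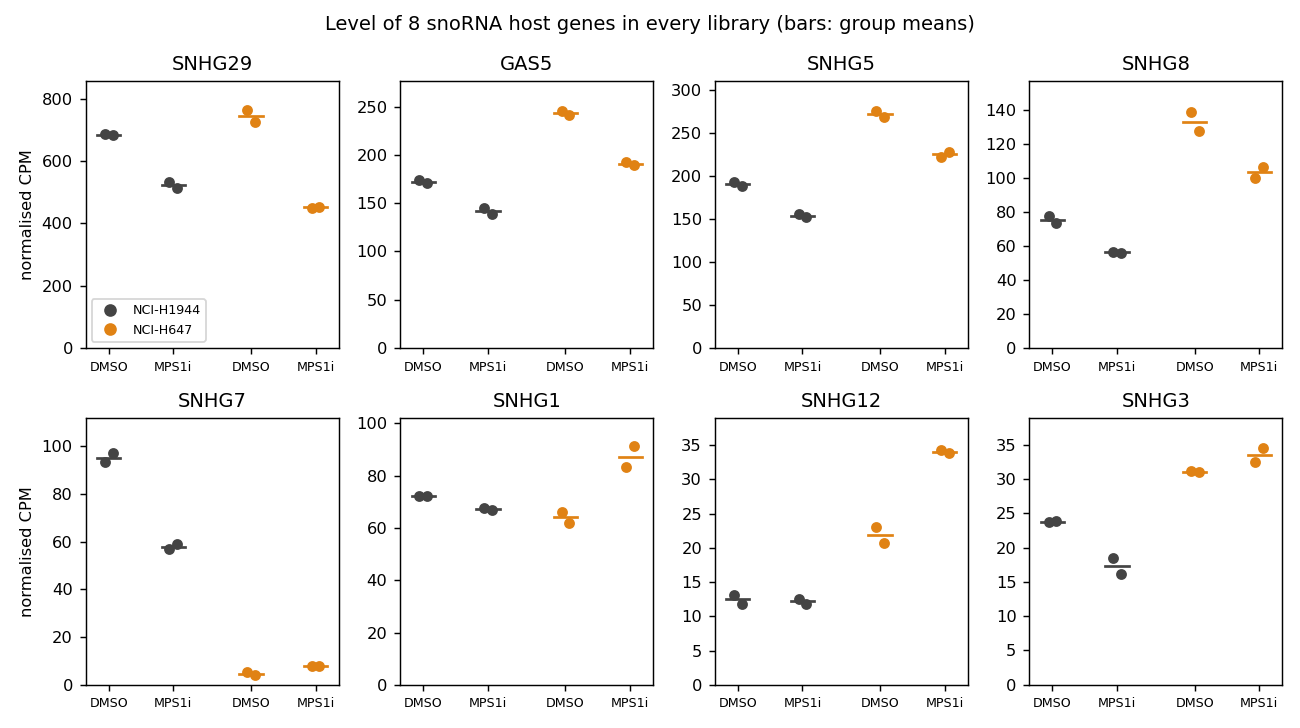
Normalised CPM (vertical axis, from 0, a separate scale per gene) of 8 snoRNA host genes in each library of NCI-H1944 (dark points) and NCI-H647 (orange points), with group means as bars. SNHG29, GAS5, SNHG5 and SNHG8 are lower after MPS1i in both lines, while SNHG7 is lower in NCI-H1944 and higher in NCI-H647. Levels were not compared between the lines, whose libraries were made with different kits.

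SNHG7 was the single member called in opposite directions. It lies on chromosome 9 (chr9:136721366-136728184, minus strand) and hosts box H/ACA RNAs of the SNORA17 family. Its level fell in NCI-H1944 from 93.2 and 97.1 CPM to 56.7 and 59.1 CPM (-0.72 ± 0.04, adjusted p = 2.77e-09), the lowest fold change of any member in that line and lower than that of every ribosomal protein gene. In NCI-H647, where the gene was scarce, its level rose from 5.16 and 4.01 CPM to 8.06 and 7.67 CPM (0.77 ± 0.17, adjusted p = 0.00114). The responses differed by 1.46 ± 0.15 on the log2 scale (adjusted p = 6.90e-08), and the difference passed in each of 13 alternative settings, at 1.29 to 1.67. DIPK1B, which overlaps SNHG7 on the opposite strand, was lower in NCI-H647 (-0.72 ± 0.13, adjusted p = 0.000185), against the direction of SNHG7. In NCI-H1944 DIPK1B was not called, with the same sign as SNHG7 there (-0.26 ± 0.12).

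The 9 members higher in NCI-H647 were SNHG1, SNHG7, SNHG10, SNHG12, SNHG15, SNHG17, SNHG20, SNHG22 and SNHG30. SNHG1, on chromosome 11 (chr11:62851978-62855953, minus strand), hosts a cluster of box C/D snoRNAs including SNORD22. It had 66.2 and 62.0 CPM in the NCI-H647 controls and 83.2 and 91.4 CPM after the inhibitor (0.44 ± 0.06, adjusted p = 1.28e-05). The same gene had 72.2 and 72.3 CPM in the NCI-H1944 controls and 67.6 and 66.8 CPM in the treated libraries, a change of -0.10 ± 0.04 that did not pass the test (adjusted p = 0.0848). SNHG1 lay above both controls in one line and below both in the other, and the responses differed by 0.53 ± 0.08 (adjusted p = 7.88e-06).

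SNHG12, on chromosome 1 (chr1:28578538-28583132, minus strand), is a host chiefly of box H/ACA RNAs and has the pyrimidine run of 11 bases printed above. Its level in NCI-H647 rose from 23.0 and 20.8 CPM to 34.3 and 33.8 CPM (0.63 ± 0.07, adjusted p = 1.63e-06). In NCI-H1944 the groups overlapped, with 13.2 and 11.8 CPM in the controls and 12.6 and 11.8 CPM after the inhibitor (-0.038 ± 0.096, adjusted p = 0.825). SNHG22 had the highest fold change of any member in NCI-H647, from 21.0 and 19.8 CPM to 38.0 and 41.5 CPM (0.96 ± 0.07, adjusted p = 1.56e-08), and was at 0 counts in all 4 NCI-H1944 libraries, which allows up to 3 counts, or 0.0687 to 0.0771 CPM, per library. MYO5B overlaps SNHG22 on the opposite strand over 28271 bases and was higher in NCI-H647 as well, by 0.26 ± 0.05 (adjusted p = 0.000924).

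The other risers in NCI-H647 were scarcer. SNHG17, which hosts the SNORA71 group, rose from 8.92 and 9.73 CPM to 13.4 and 13.5 CPM (0.53 ± 0.11, adjusted p = 0.000947). SNHG15, host of SNORA9, rose from 6.73 and 6.37 CPM to 10.2 and 11.3 CPM (0.71 ± 0.13, adjusted p = 0.000324). In NCI-H1944 neither passed, at 10.6 and 10.4 against 11.02 and 11.34 CPM for SNHG17 (0.089 ± 0.096) and 16.2 and 19.3 against 20.1 and 20.7 CPM for SNHG15 (0.20 ± 0.09). SNHG10, host of the Cajal body RNA SCARNA13, rose in NCI-H647 from 3.55 and 3.48 CPM to 6.24 and 6.49 CPM (0.86 ± 0.17, adjusted p = 0.000698), with 2.996 and 3.117 against 2.57 and 2.92 CPM in NCI-H1944 (-0.15 ± 0.19).

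SNHG30 rose in NCI-H647 from 2.97 and 3.01 CPM to 4.86 and 4.94 CPM (0.71 ± 0.20, adjusted p = 0.00649). In NCI-H1944 it had 7.57 and 8.15 CPM in the controls and 7.60 and 7.46 CPM after the inhibitor (-0.062 ± 0.114). SNHG20, host of SCARNA16, had 1.72 and 1.24 CPM in the NCI-H647 controls and 2.39 and 2.51 CPM in the treated libraries (0.71 ± 0.29), with an adjusted p of 0.0494 that 7 of 10 alternative settings other than a minimum fold did not keep (0.0370 to 0.277). In NCI-H1944, SNHG20 had 7.59 and 6.21 against 5.85 and 5.38 CPM (-0.30 ± 0.14, adjusted p = 0.131).

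SNHG4 and SNHG6 were lower in NCI-H647 and not called in NCI-H1944. SNHG4, on chromosome 5 (chr5:139274102-139284899, plus strand), had 18.7 and 18.2 CPM in the NCI-H647 controls and 10.96 and 11.14 CPM after the inhibitor (-0.74 ± 0.10, adjusted p = 9.75e-06). In NCI-H1944 its level was 3.71 and 3.83 against 2.89 and 3.23 CPM (-0.30 ± 0.17), and the difference between lines did not pass (adjusted p = 0.0562), except without the first NCI-H1944 MPS1i library (0.0447). The whole interval of SNHG4 lies within a MATR3 entry on the same strand, so reads of the pair cannot be fully told apart. That entry was lower in NCI-H647 (-0.64 ± 0.16, adjusted p = 0.00369). It had 480 and 321 counts in the controls and 241 and 147 after the inhibitor. In NCI-H1944, MATR3 was matched by symbol and was lower (-0.11 ± 0.03, adjusted p = 0.0191). Whether the entries of the lines cover the same transcripts was not tested. SNHG6, a host of box C/D snoRNA, had 157.3 CPM in both NCI-H647 controls and 148.3 and 140.7 CPM after the inhibitor (-0.12 ± 0.04, adjusted p = 0.0301). Its NCI-H1944 values were 101.6 and 109.1 against 97.6 and 97.4 CPM (-0.11 ± 0.04, adjusted p = 0.0621), and the NCI-H647 call was lost with DESeq2 (adjusted p = 0.128, in a range of 0.0200 to 0.197 over settings other than a minimum fold).

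SNHG3 and SNHG9 were lower in NCI-H1944 and not called in NCI-H647. SNHG3 hosts SNORA73A and SNORA73B, box H/ACA RNAs that act in the cleavage of pre-ribosomal RNA, and lies within the interval of RCC1 on the same strand of chromosome 1 (chr1:28505980-28510892). It fell in NCI-H1944 from 23.7 and 23.8 CPM to 18.5 and 16.1 CPM (-0.45 ± 0.08, adjusted p = 0.000552). Its NCI-H647 level was 31.1 and 31.0 CPM in the controls and 32.5 and 34.5 CPM after the inhibitor (0.11 ± 0.06, adjusted p = 0.139, or 0.0373 with total counts in place of TMM factors), and the responses differed by 0.54 ± 0.10 (adjusted p = 0.000239). RCC1, the exchange factor for the GTPase Ran, went otherwise, at -0.074 ± 0.041 in NCI-H1944 (adjusted p = 0.209) and -0.29 ± 0.05 in NCI-H647 (adjusted p = 0.000188). SNHG9, host of SNORA78, had 5.26 and 4.52 against 3.54 and 3.46 CPM in NCI-H1944 (-0.48 ± 0.16, adjusted p = 0.0352), a call lost in 5 of 10 settings other than a minimum fold, with adjusted p up to 0.209.

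The 5 members tested and not called in either line were SNHG11, SNHG19, SNHG21, SNHG26 and SNHG28, with log2 fold changes from -0.41 (SNHG21) to 0.42 (SNHG26) in NCI-H1944 and from -0.33 (SNHG28) to 0.42 (SNHG11) in NCI-H647. SNHG31 was tested in NCI-H647 only and was not called (-0.060 ± 0.301). SNHG18, SNHG25 and SNHG27 had at most 7 counts in any library of either line and were not tested. In NCI-H1944, SNHG22 and SNHG31, with at most 3 counts in any library, were not tested either.

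Over the 24 members tested in both lines, 11 had a negative log2 fold change in both, 3 a positive one in both, and 10 had opposite signs. Pearson's r between the lines across these genes was 0.17 and Spearman's rho 0.23, as a description over genes, which are not independent replicates. The sign counts and correlations were not computed over all genes. The difference between the lines passed for 11 of the 24 members (45.8%), beside 40.1% of the 12887 genes tested in both. The NCI-H647 response was above that of NCI-H1944 for 9 (SNHG1, SNHG3, SNHG7, SNHG10, SNHG12, SNHG15, SNHG17, SNHG20 and SNHG30) and below it for 2 (SNHG14 and SNHG29), beside 17.4% and 22.7% of all genes. Among ribosomal protein genes, 58 of 79 passed, with NCI-H647 below for 57 of them. The median difference was 0.22 for the members, -0.22 for the ribosomal proteins and -0.036 for all genes. Line, library kit and count table change together here and cannot be told apart.

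The host genes covered a wider range of fold changes than the ribosomal proteins in both lines. Of 79 ribosomal protein genes, 74 were lower in each line, 0 were higher in NCI-H1944 (0 also at an unadjusted p under 0.05 and with DESeq2), and RPL28 alone was higher in NCI-H647 (0.14 ± 0.03, adjusted p = 0.00118). RPL3, of the large subunit, was among the genes with the largest falls, at -0.49 ± 0.02 and -1.04 ± 0.04. The standard deviation of log2 fold changes across genes was 0.26 for the members and 0.088 for the ribosomal proteins in NCI-H1944, and 0.53 and 0.20 in NCI-H647. These spreads include the error of each estimate, which was wide for scarce members, such as SNHG21 in NCI-H647 (0.30 ± 0.32). In NCI-H1944, 18 of 24 members lay within the range of the ribosomal proteins, 5 above it and SNHG7 below it. None of those 5 was called, and they include scarce genes with wide errors, such as SNHG26 (0.42 ± 0.47, with 14 to 41 counts per library). In NCI-H647, 15 of 26 lay within that range, 11 above it and 0 below it, and all 9 members called lower were within it.

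Genes of related function gave further reference points, from lists of translation factors, snoRNA carriers and decay factors. All 18 translation factors and other mRNAs known for TOP starts were lower in both lines, with medians of -0.27 and -0.56. EIF4B, which aids the helicase of translation initiation, changed by -0.65 ± 0.02 and -0.83 ± 0.03, and EEF1A1, the elongation factor that carries aminoacyl-tRNA, by -0.27 ± 0.01 and -0.76 ± 0.03. Of 24 protein-coding snoRNA hosts outside the ribosomal proteins, 10 were lower and the others not called in NCI-H1944 (median -0.086), and 15 lower and 2 higher in NCI-H647 (median -0.23). The elongation factor EEF2 was among those that fell, by 0.41 and 0.55 on the log2 scale. Of other annotated long noncoding genes, 66 of 1879 were lower and 101 higher in NCI-H1944 (8.89% called), and 223 of 1518 were lower and 242 higher in NCI-H647 (30.6% called).

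Among 3 further noncoding snoRNA hosts, DANCR was lower in both lines (-0.64 ± 0.09, adjusted p = 8.05e-05, and -0.49 ± 0.09, adjusted p = 0.000319). EPB41L4A-AS1 was lower in NCI-H1944 (-0.31 ± 0.08, adjusted p = 0.0078) and not called in NCI-H647 (0.22 ± 0.10). ZFAS1, which hosts box C/D RNAs, was not called in NCI-H1944 (-0.011 ± 0.040) and was higher in NCI-H647 (0.29 ± 0.06, adjusted p = 0.00055). As among the SNHG genes and all genes tested, NCI-H647 had calls in both directions here.

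**Figure D3:**
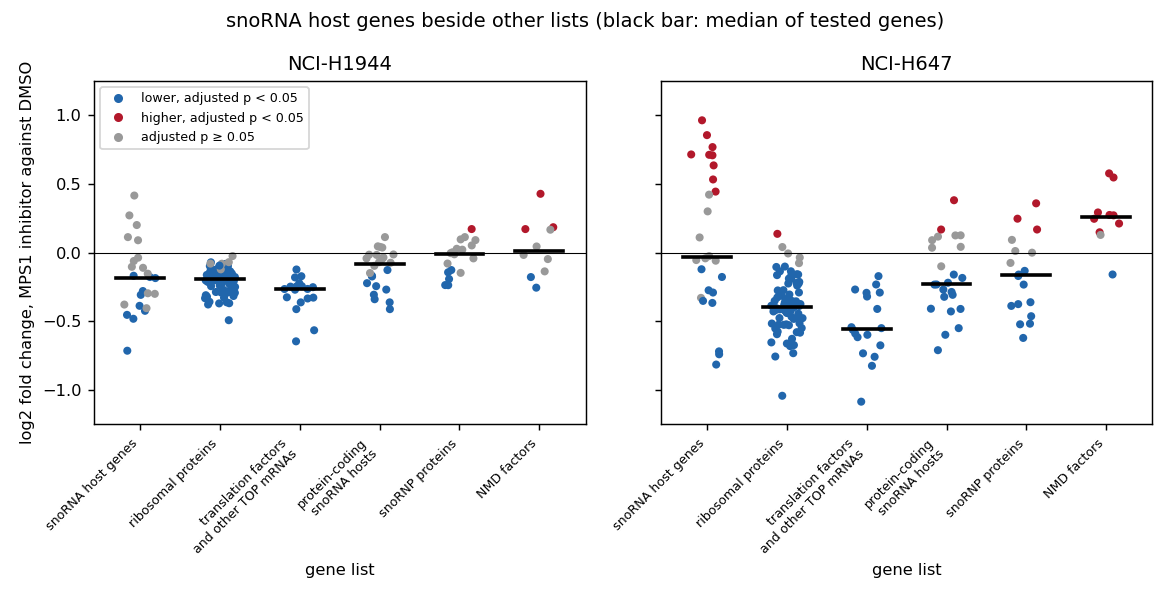
log2 fold change of MPS1i against DMSO for each tested gene of 6 lists in NCI-H1944 (left) and NCI-H647 (right), coloured by call, with the list median as a black bar (TOP, terminal oligopyrimidine; NMD, nonsense-mediated decay). Ribosomal proteins and TOP mRNAs lie almost wholly below 0 in both lines, whereas the snoRNA host genes of NCI-H647 spread from -0.82 to 0.96.

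Of 18 proteins that bind snoRNAs or assemble their particles, 5 were lower and 1 higher in NCI-H1944 (median -0.0088), and 11 were lower and 3 higher in NCI-H647 (median -0.17). With DESeq2, 2 and 7 of them were lower. FBL, the methyltransferase of box C/D particles, fell in both lines, by 0.24 and 0.62 on the log2 scale. NHP2, a core protein of box H/ACA particles, fell by 0.24 and 0.52, while NOP10, of the same particles, was higher in both lines (0.17 ± 0.04, adjusted p = 0.00758, in NCI-H1944, and 0.36 ± 0.05, adjusted p = 2.69e-05, in NCI-H647). Of 10 nonsense-mediated decay factors, 2 were lower and 3 higher in NCI-H1944 (median 0.013), and 1 was lower and 8 higher in NCI-H647 (median 0.26), where DESeq2 called 4 higher. The kinase SMG1, which phosphorylates UPF1, rose by 0.43 ± 0.04 in NCI-H1944. Of 8 regulators of TOP mRNAs and growth, 1 was lower and 1 higher in NCI-H1944 and 3 lower and 2 higher in NCI-H647, where LARP1, which binds TOP starts, fell by 0.26 on the log2 scale and MAX, the partner of MYC, rose by 0.63. Whether any of these bear on the host genes was not tested.

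The rRNA-depleted NCI-H647 table also lists snoRNAs as entries of their own, which gives a second readout of the same loci. Intervals of 28 of the 29 members held at least 1 snoRNA entry on the same strand, 140 in all, of which 24 had any count and 8, in 6 hosts, had enough to test. Of these 8, 4 were higher and 0 lower after the inhibitor by edgeR's quasi-likelihood test, beside 27.3% and 27% of all genes tested. At an unadjusted p under 0.05, 0 were lower as well, and DESeq2 called 2 higher and 0 lower. Of the called ones, 3 are printed with the last ACA trinucleotide near the 3′ end in capitals, the box that gives H/ACA RNAs their name. They are at chr14:95533355-95533629 (SCARNA13), chr1:28507366-28507571 (SNORA73A) and chr1:28508559-28508762 (SNORA73B), in GRCh38, with sequences from GENCODE transcripts.
SCARNA13: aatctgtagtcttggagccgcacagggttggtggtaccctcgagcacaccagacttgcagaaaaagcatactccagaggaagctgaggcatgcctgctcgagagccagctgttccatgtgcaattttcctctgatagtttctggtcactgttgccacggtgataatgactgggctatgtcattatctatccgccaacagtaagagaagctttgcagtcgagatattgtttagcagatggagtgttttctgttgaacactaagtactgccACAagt
SNORA73A: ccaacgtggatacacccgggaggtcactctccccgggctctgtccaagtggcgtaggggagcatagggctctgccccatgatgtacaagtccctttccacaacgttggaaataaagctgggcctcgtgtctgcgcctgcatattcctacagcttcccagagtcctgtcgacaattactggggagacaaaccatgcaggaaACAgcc
SNORA73B: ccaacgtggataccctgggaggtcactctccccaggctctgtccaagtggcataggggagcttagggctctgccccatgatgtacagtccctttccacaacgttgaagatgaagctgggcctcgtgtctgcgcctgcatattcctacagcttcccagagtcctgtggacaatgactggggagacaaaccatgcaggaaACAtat

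SCARNA13, 275 bases long, had 17.7 and 14.7 CPM in the controls and 22.9 and 22.6 CPM after the inhibitor (0.48 ± 0.09, adjusted p = 0.000463).

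SNORA73A had 21.4 and 16.3 CPM in the controls and 21.1 and 28.0 CPM after the inhibitor (0.37 ± 0.13, adjusted p = 0.0223). SNORA73B had 34.9 and 29.2 CPM in the controls and 34.7 and 39.4 CPM after the inhibitor (0.20 ± 0.08, adjusted p = 0.0470). For both, 1 treated library lay under the higher control, and their calls were lost in 4 and 5 settings other than a minimum fold, among them those without the second library of either group (adjusted p up to 0.446 and 0.489). The 4 entries that were not called were SNORD22 in SNHG1 (0.083 ± 0.281), SNORA71A (0.53 ± 0.44) and SNORA71D (-0.057 ± 0.324) in SNHG17, and SCARNA16 in SNHG20 (0.43 ± 0.29). No box C/D RNA of SNHG29, SNHG5 or SNHG14 had more than 1 count in any NCI-H647 library. The tested entries were 126 to 275 bases long. Entries of 73 to 83 bases with any count held at most 3 in any library. How well these libraries keep short RNAs was not tested, so few counts need not mean little of the RNA.

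**Figure D4:**
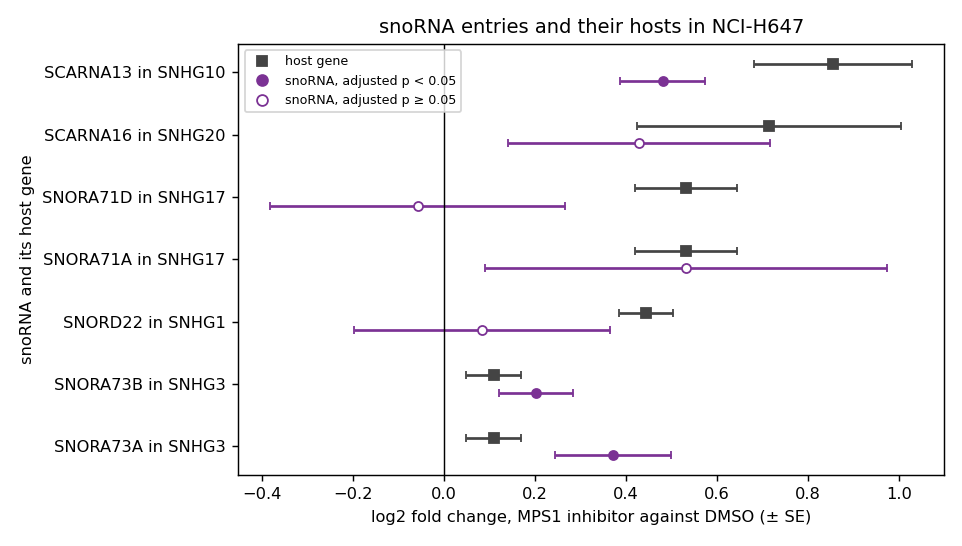
log2 fold change of MPS1i against DMSO in NCI-H647, with its standard error (bars), for 7 of the 8 snoRNA entries tested (circles, filled where the adjusted p was under 0.05) and for their host genes (squares). The 3 filled circles lie from 0.20 to 0.48.

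In the poly(A)-selected NCI-H1944 libraries, snoRNA entries lying in the RefSeq intervals of the members summed to 383 and 343 counts in the controls and 433 and 394 after the inhibitor, or 9.73 and 8.76 against 9.94 and 9.21 CPM, so that the groups overlapped once scaled. Of 12 tested there with edgeR's quasi-likelihood test, 0 were called and 1 had an unadjusted p under 0.05 (lowest adjusted p 0.0845). GAS5 was the member without such an entry in the NCI-H647 table. In NCI-H1944 its 11 entries held 120 and 94 counts in the controls and 156 and 144 after the inhibitor, or 3.05 and 2.40 against 3.58 and 3.37 CPM, and 0 of the 5 tested were called. The 3 entries in SNHG29 held 38 and 42 counts in the controls and 35 and 28 after the inhibitor, or 0.965 and 1.07 against 0.804 and 0.654 CPM, and 0 of the 2 tested were called. Strand was not used in assigning these entries. Reads on them may come from the host or another overlapping RNA, which was not tested.

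In NCI-H647, where the intervals are given, ribosomal protein genes could be split by whether a snoRNA entry lies inside them. Of 28 with an entry 27 were lower (median -0.44), and of 51 without an entry 47 were lower (median -0.39). Other protein-coding genes with an entry were lower in 84 of 210 cases (40.0%, median -0.059), against 28.5% of 12541 without. They were higher in 47 of 210 cases, against 3698 of 12541 without. The 16 other long noncoding genes with an entry gave 3 lower and 6 higher (median 0.21). The 1501 without an entry gave 220 lower and 235 higher (median 0.0022).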

How the data were processed

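RNA was sequenced in 8 libraries, 2 per group, from NCI-H1944 and NCI-H647 cells. Per the labels' protocols, poly(A) RNA was selected for the NCI-H1944 libraries, whereas ribosomal RNA was depleted for the NCI-H647 libraries, later converted for MGI sequencing, both with stranded kits. The authors deposited raw, unscaled read counts, in a table per line. The submitters' processing notes list the build GRCh38, the trimmers cutadapt, Trim Galore and Trimmomatic, the aligners HISAT2 and STAR, and featureCounts and StringTie. Tool versions, annotation release, the tools behind each table and whether counting used strand are not given in the sources used, so overlapping and antisense genes are uncertain.

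Samples were grouped by title. In R 4.3.3, genes of each line were filtered with edgeR 4.0.16 (filterByExpr, minimum count 10, minimum total 15), scaled by TMM factors and tested with edgeR's quasi-likelihood F test, MPS1i against DMSO, in the 4 libraries of the line. Benjamini-Hochberg adjustment ran over all genes tested, and calls needed an adjusted p under 0.05. CPM values are counts scaled to a common library size with TMM factors, and ± after a log2 fold change is its standard error, |log2 fold change| over the root of F. Lines were compared by the line-by-treatment interaction in a fit over all 8 libraries and 12887 genes. The biological coefficient of variation was 3.99% in NCI-H1944 and 3.54% in NCI-H647. Within each group, the replicate libraries differed by more than counting noise (chi-square per degree of freedom 1.98 to 3.93), so none was counted as a copy. The fits were tested on simulated data.

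All members are accounted for. Library values are given for the 8 most abundant members of a line, those called with an absolute log2 fold change of at least 0.5, and those that differed between lines, and of each other list up to 4 genes with the smallest adjusted p, plus genes that overlap a member. The reporting of further overlapping genes was chosen after their values were seen. The members, the gene lists and the rule were chosen with earlier results of these data known. Gene starts came from RefSeq windows (GRCh38.p14), where 25 members had one, and snoRNA sequences from GENCODE transcripts. A snoRNA entry was assigned to a member when it lay inside its interval on the same strand (in NCI-H1944, inside its RefSeq interval, strand unused). Alternatives were DESeq2 1.42.0, other scaling, no filter, the replicate number as a block, a minimum fold of 1.2, summed entries per symbol and leaving out each library. Those on snoRNA entries and other lists were added after seeing the data. Intervals and count floors cover counting error only. A few items are not reported here.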

Additional observations from a re-analysis of the deposited data

Results flagged for a closer look

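The response of 11 snoRNA host genes to the inhibitor differed between the lines by the interaction term of edgeR's quasi-likelihood joint fit. They were 45.8% of the 24 members tested in both lines, near the 40.1% of all 12887 genes. The values are the log2 fold change in NCI-H647 minus that in NCI-H1944, and line, kit and count table cannot be told apart. The difference was 1.46 for SNHG7, called lower in one line and higher in the other. It was 0.99 for SNHG10, 0.99 for SNHG20, 0.75 for SNHG30, 0.65 for SNHG12, 0.53 for SNHG1, 0.49 for SNHG15 and 0.42 for SNHG17, which were higher in NCI-H647 and not called in NCI-H1944. For SNHG3 it was 0.54, with a call in NCI-H1944 alone. It was -0.65 for SNHG14 and -0.36 for SNHG29, both lower in each line. SNHG15, SNHG17 and SNHG20 lost this call in 4, 6 and 3 of 13 alternative settings, with adjusted p up to 0.116, 0.123 and 0.101.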

How the results depend on the processing

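Among calls of single members, 7 of 10 in NCI-H1944, 14 of 18 in NCI-H647 and 8 of 11 differences between lines were kept under every alternative other than a minimum fold. Those lost were SNHG9, SNHG14 and SNHG32 in NCI-H1944, SNHG6, SNHG16, SNHG20 and SNHG30 in NCI-H647, and SNHG15, SNHG17 and SNHG20 between lines, and the cause was not tested. SNHG14 in NCI-H1944 missed the threshold without DMSO library 1 (adjusted p = 0.0551, in a range of 0.00288 to 0.0551), and SNHG16 and SNHG30 in NCI-H647 with DESeq2 (0.0826 and 0.0819, the highest of their ranges, from 0.00542 and 0.00416). Other calls ended without single libraries. These were SNHG32 (without either DMSO or the second MPS1i library) and SNHG9 (without the first DMSO or either MPS1i library) in NCI-H1944, and SNHG20 (without the second DMSO or either MPS1i library) and SNHG6 (without the first DMSO or the second MPS1i library) in NCI-H647. Between lines, SNHG15 and SNHG20 ended without any 1 of 3 libraries and SNHG17 without any 1 of 5.

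A test against a minimum fold of 1.2 left 3 members lower in NCI-H1944 and 5 in NCI-H647. Of the members higher in NCI-H647, SNHG20 alone lost its call in that test (adjusted p = 0.126). Among ribosomal protein genes, it left 10 lower in NCI-H1944 and 0 higher in NCI-H647. The snoRNA entries called higher in NCI-H647 numbered 2 with DESeq2, 2 without the low-count filter and 2 with the minimum fold. Leaving out 1 library at a time gave 1 to 4 of them, with 2 without the second DMSO library and 1 without the second MPS1i library. It gave 0 to 2 members higher in NCI-H1944, with 2, SNHG11 and SNHG15, without the second DMSO library. It also gave 9 to 10 members lower in NCI-H1944, 8 to 9 lower and 8 to 9 higher in NCI-H647, and 8 to 13 differing between lines. With DESeq2, these were 8 lower in NCI-H1944, 7 lower and 7 higher in NCI-H647, and 9 between lines.

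Only members that were not called turned sign. With total counts in place of TMM factors, SNHG19 was at 0.0062 and SNHG26 at 0.022 in NCI-H647, and the differences between lines were 0.050 for SNHG16 and 0.048 for SNHG6. Leaving out 1 library gave ranges in NCI-H1944 of -0.11 to 0.039 for SNHG12, -0.11 to 1.02 for SNHG26 and -0.030 to 0.24 for SNHG28. In NCI-H647 they were -0.25 to 0.21 for SNHG19, -0.13 to 0.061 for SNHG26, -0.40 to 0.33 for SNHG31, -0.29 to 0.24 for SNORA71D and -0.19 to 0.45 for SNORD22. For differences between lines they were -0.016 to 0.040 for SNHG5, -0.089 to 0.020 for SNHG6, -0.030 to 0.11 for SNHG8 and -1.07 to 0.068 for SNHG26.

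Treated and control libraries share replicate numbers in the labels, which do not say whether they were paired. The deviations of same-numbered libraries correlated at 0.037 in NCI-H1944 and -0.032 in NCI-H647, across genes. A low correlation from a single pair of differences per line cannot exclude a shared culture or batch. With the replicate block, 12 members were lower and 0 higher in NCI-H1944 (SNHG6 and SNHG19 in addition, adjusted p = 0.0281 and 0.0310), 9 lower and 8 higher in NCI-H647, where SNHG20 had an adjusted p of 0.0525, and 11 differed between lines. NCI-H647 had fewer counts per library, and depth limits what can be seen of its scarce members. With 1 library left in a group, that library is assumed to vary like the others.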

Other observations

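Protein-coding neighbours that overlap a host gene on the opposite strand did not always move with it. ZBTB37, which overlaps GAS5 over 801 bases, was lower in NCI-H647 (-0.46 ± 0.07, adjusted p = 5.68e-05) and not called in NCI-H1944 (0.21 ± 0.10). GLRX5, a mitochondrial iron-sulfur cluster gene, overlaps SNHG10 over 1387 bases and was lower in NCI-H647 (-0.20 ± 0.06, adjusted p = 0.00789), where SNHG10 was higher. SEC14L1 shares 11154 bases and its strand with SNHG20 and was not called in either line (0.018 ± 0.048 and 0.021 ± 0.051). These genes were named after their values were seen.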
